A study of Mus musculus with 8 samples.

Results

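Interferon-stimulated genes are the genes that cells switch on when an interferon binds its receptor. A set of 39 of them was followed in dendritic cells sorted from bone marrow and from spleen. Each member was found by its symbol and read from a probe set whose platform annotation names that gene and no other. Such a probe set existed for 36 of the 39 members, among 19938 genes measured this way. Gbp2 and Isg15 have only a probe set shared with another gene, and Ifi44 has none named, so these 3 have no value here.

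Each of 4 mice gave 1 array of bone marrow cells, labelled myeloid dendritic cells, and 1 array of spleen cells, labelled spleen classical dendritic cells. All mice were 8 weeks old with the genotype CX3CR1-gfp/+, in which a gene for green fluorescent protein replaces 1 allele of the fractalkine receptor, so both groups carry the reporter. Cells were sorted into lysis buffer, and labelled cDNA was made from between 100 pg and 2 ng of total RNA and hybridised to Affymetrix mogene 1.0 ST arrays. The sources used here do not give the surface markers of the sort.

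Type I interferons bind the receptor chains Ifnar1 and Ifnar2, and the kinases Jak1 and Tyk2 then activate transcription factors, among them Stat2, which with Irf9 bind a DNA element called the interferon-stimulated response element. The genes reached in this way sense foreign RNA and DNA, block viral replication and tag proteins with the ubiquitin-like modifier Isg15. Dendritic cells both make interferons and respond to them, and a low level of this programme is present in many immune cells without infection.

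The deposited intensities are linear, with array medians between 125 and 135, and levels below are intensities or geometric means of the 4 arrays of a group. Fold changes are log2 differences, bone marrow minus spleen, from limma over all 19938 genes with Benjamini-Hochberg adjustment and a threshold of 0.05, and errors are moderated standard errors (SE) with n = 4 arrays per group. Over all genes 18.5% passed, 9.26% higher and 9.2% lower in bone marrow. No detection call comes with the values, but all 36 members remained when the dimmest 40% of genes were left out. As background to every level, the arrays come from sorted populations, in which fewer cells of a type and less RNA per cell cannot be told apart.

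Bone marrow array 4 stood apart from the other 3 marrow arrays for these genes. It was the highest marrow array for 30 of 36 members, against 24.2% of all genes, and lay above the mean of the other 3 for 32 of 36 members. Its median excess over them was 1.19-fold across the members and 0.987-fold across all genes. In a separate list of 42 measured interferon-stimulated genes it was highest for 34, with a median excess of 1.19-fold. The members with the largest excess were Oas3 (1.78-fold), Ifit2 (1.76-fold), Ifit1 (1.60-fold) and Cmpk2 (1.51-fold). The spleen array of the same mouse was the highest spleen array for 11 of 36 members, against 27.2% of all genes. It was the lowest for 12 of 36, against 27.1% of all genes. Spleen array 3 was the highest spleen array for 18 of 36 members, against 23.2% of all genes. It was the lowest for none of the 36, against 35.8% of all genes. Its median excess over the other 3 spleen arrays was 1.10-fold. Some markers of dendritic cells were also highest in these arrays. Of 8 classical dendritic cell markers, 5 were highest in marrow array 4 and 7 in spleen array 3. The median deviation of these 8 markers from the group median was 0.07 log2 in each of these arrays. For the members it was 0.22 in marrow array 4 and 0.10 in spleen array 3. Of 6 plasmacytoid dendritic cell markers, 3 were highest in marrow array 4 and 2 in spleen array 3. The part of this in the results was not tested. Calls are given with and without these arrays where they matter.

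**Figure D1:**
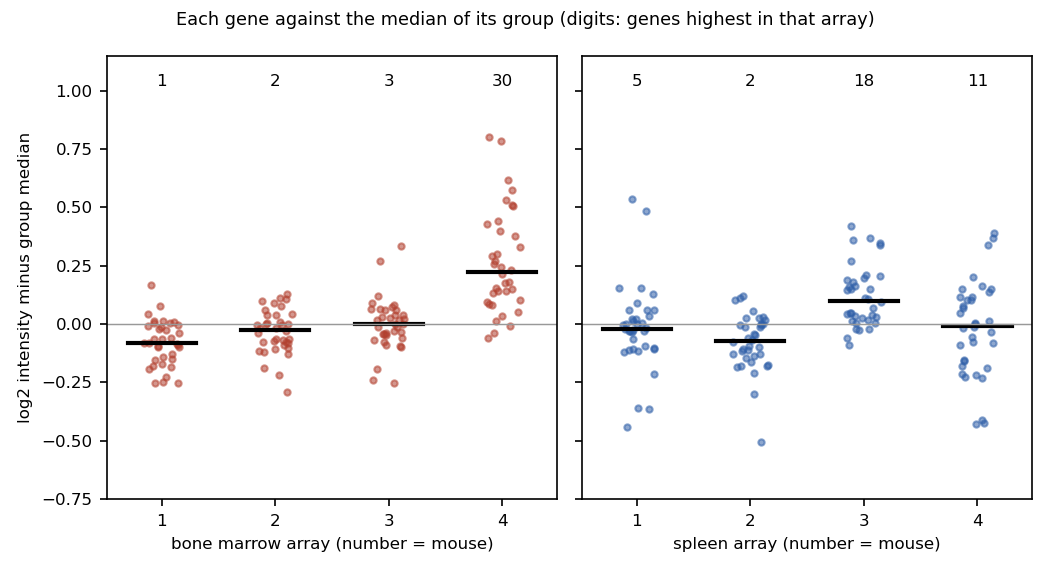
Points are the 36 interferon-stimulated genes, the y axis is log2 intensity minus the median of the gene's group, the x axis is the array by mouse, black lines are medians, and digits count the genes that are highest in that array. Bone marrow array 4 (left panel) is highest for 30 of 36 genes with a median deviation of 0.22, while spleen array 4 (right panel), from the same mouse, is highest for 11.

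Interferon-stimulated genes were mostly higher in bone marrow. Of the 36 measured members 20 (55.6%) were higher and 2 were lower, against 9.26% and 9.2% of all genes, and 14 did not pass. The median log2 fold change of the members was 0.44, against -0.01 over all genes. Only 4 of the 20 differed by 2-fold or more, and the members ranged from -0.39 to 1.35. In 19 members all 4 marrow arrays lay above all 4 spleen arrays (10.4% of all genes), and in no member did all 4 marrow arrays lie below (10.2% of all genes). Within single mice, the marrow array was higher for 27, 29, 24 and 34 of 36 members in mice 1 to 4, against 52.8%, 40.5%, 57.9% and 42.5% of all genes. A total of 23 members were higher in marrow in all 4 mice and 1, Herc6, was lower in all 4. The share of all genes with 1 direction in all 4 mice was not computed. Without bone marrow array 4, the call of every one of the 36 members was the same, and the median log2 fold change was 0.41.

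**Figure D2:**
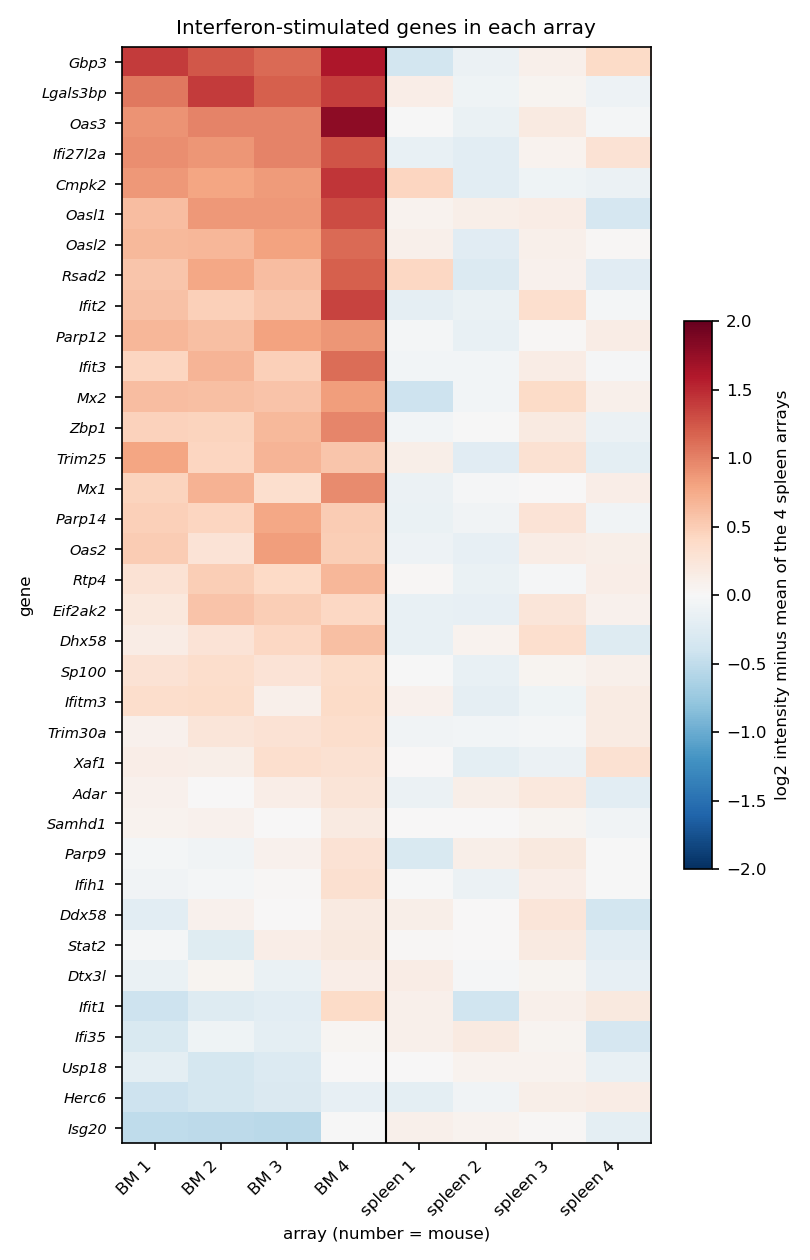
Each row is a gene, ordered by fold change, and each column an array (BM, bone marrow, left of the line, and spleen, right of it, numbered by mouse). Colour is log2 intensity minus the mean of the 4 spleen arrays. The upper rows, led by Gbp3, Lgals3bp and Oas3, are higher in all 4 marrow arrays, and bone marrow array 4 has the deepest colour in many of them.

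**Figure D3:**
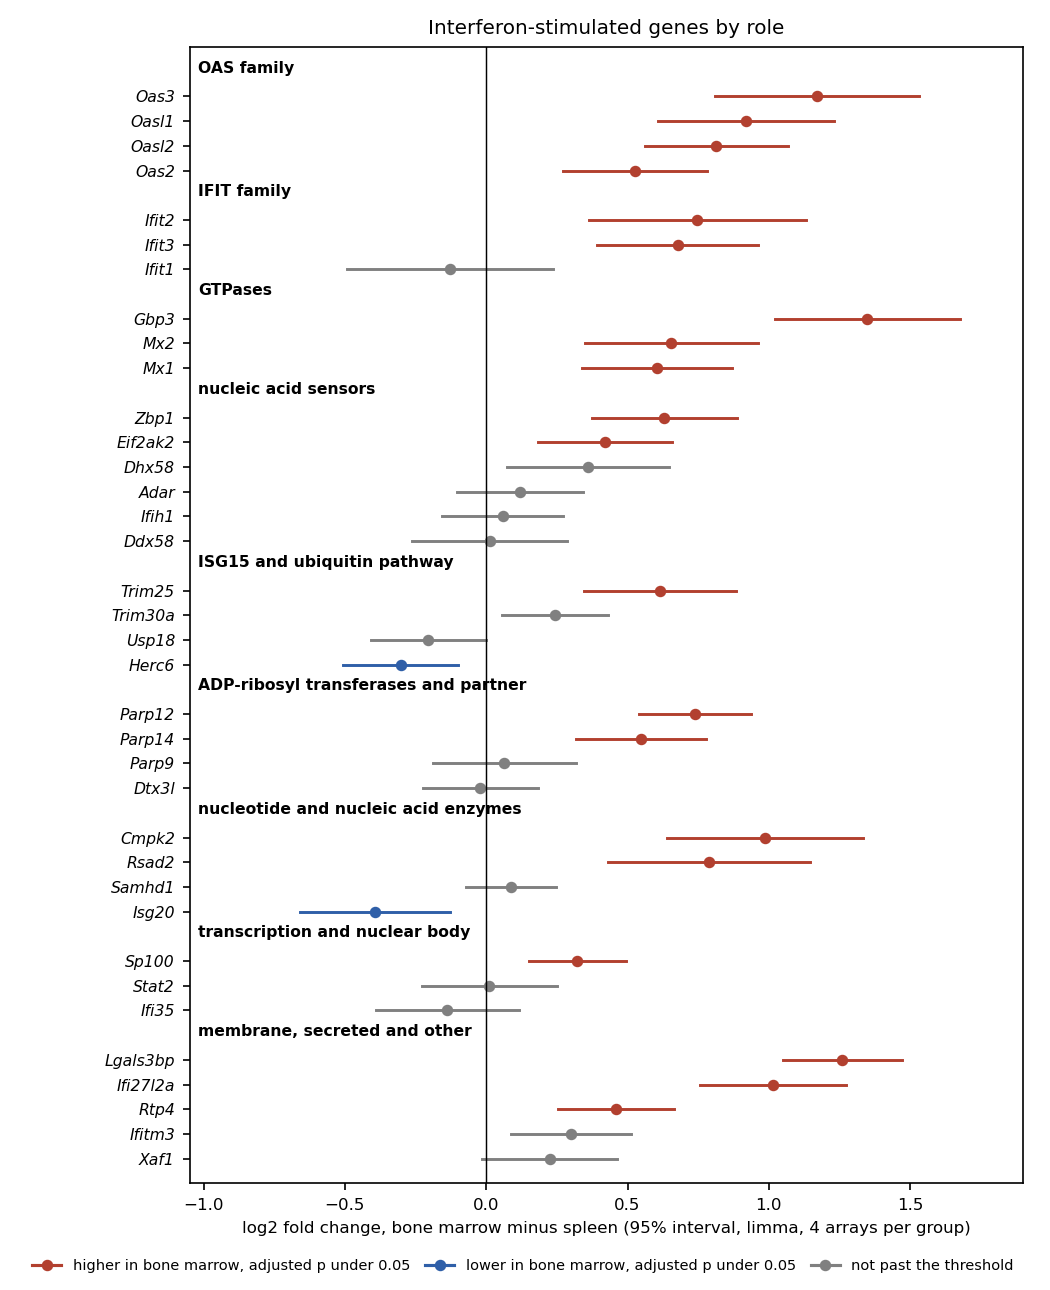
Points are log2 fold changes, bone marrow minus spleen, and bars are limma's 95% intervals with 4 arrays per group, grouped by role. All 4 OAS family genes and all 3 measured GTPases lie above 0, and Herc6 and Isg20 are the 2 genes called lower in bone marrow.

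Promoters of 6 members are shown because all carry the core of the element through which interferon acts, while 4 of the genes were higher in bone marrow and Ifit1 and Stat2 did not pass. RefSeq promoter windows of GRCm38.p6, from 250 bases before to 50 bases after the start, were searched on either strand for the core of the interferon-stimulated response element, spelled GAAA, any 2 bases, GAAA. The sequences run 5′ to 3′ on the gene's strand, and capitals mark the matches. They are Oas3 (chr5:120777610-120777909, minus strand), Gbp3 (chr3:142559794-142560093, plus), Rsad2 (chr12:26456403-26456702, minus), Ifit3 (chr19:34583279-34583578, plus), Ifit1 (chr19:34640639-34640938, plus) and Stat2 (chr10:128270248-128270547, plus).
Oas3: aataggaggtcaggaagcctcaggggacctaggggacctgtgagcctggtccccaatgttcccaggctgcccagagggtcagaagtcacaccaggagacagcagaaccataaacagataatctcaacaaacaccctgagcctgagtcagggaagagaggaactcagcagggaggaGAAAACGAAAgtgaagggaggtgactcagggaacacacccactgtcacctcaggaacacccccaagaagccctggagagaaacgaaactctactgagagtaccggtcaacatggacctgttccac
Gbp3: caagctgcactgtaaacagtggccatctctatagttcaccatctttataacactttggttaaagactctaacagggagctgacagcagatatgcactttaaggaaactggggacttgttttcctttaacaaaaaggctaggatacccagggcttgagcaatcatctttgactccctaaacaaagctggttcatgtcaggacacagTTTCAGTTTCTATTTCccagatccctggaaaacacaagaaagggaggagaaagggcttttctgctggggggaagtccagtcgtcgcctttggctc
Rsad2: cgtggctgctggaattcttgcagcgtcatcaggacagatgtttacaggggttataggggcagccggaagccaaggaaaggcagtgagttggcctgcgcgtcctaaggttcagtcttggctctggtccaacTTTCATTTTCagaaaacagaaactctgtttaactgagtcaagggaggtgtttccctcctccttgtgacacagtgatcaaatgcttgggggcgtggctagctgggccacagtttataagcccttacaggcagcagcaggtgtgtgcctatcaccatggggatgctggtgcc
Ifit3: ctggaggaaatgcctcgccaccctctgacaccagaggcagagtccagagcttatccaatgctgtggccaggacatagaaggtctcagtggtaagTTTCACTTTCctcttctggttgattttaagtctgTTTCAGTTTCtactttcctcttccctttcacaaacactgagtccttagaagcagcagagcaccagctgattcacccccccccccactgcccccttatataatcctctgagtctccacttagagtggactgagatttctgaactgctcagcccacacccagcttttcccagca
Ifit1: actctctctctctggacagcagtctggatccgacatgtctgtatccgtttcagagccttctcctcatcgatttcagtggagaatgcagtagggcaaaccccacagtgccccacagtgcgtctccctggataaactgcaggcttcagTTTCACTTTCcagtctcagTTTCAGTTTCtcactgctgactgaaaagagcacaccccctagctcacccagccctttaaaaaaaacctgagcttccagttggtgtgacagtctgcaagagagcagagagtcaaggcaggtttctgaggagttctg
Stat2: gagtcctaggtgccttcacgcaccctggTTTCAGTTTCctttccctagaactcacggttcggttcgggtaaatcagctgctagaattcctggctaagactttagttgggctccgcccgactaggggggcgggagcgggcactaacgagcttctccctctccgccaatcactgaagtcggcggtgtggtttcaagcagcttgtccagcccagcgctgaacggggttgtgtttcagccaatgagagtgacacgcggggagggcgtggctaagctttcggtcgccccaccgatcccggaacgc
The match begins 75 bases before the start in Oas3, 120 in Rsad2 and 222 in Stat2. Gbp3 has 2 overlapping matches, which begin 45 and 39 bases before the start. A second Gbp3 window, chr3:142560106-142560405, held no match. Ifit3 holds TTTCACTTTC and TTTCAGTTTC, 156 and 122 bases before its start, and Ifit1 holds the same letters 104 and 85 bases before its start. Of 29 members with a RefSeq promoter, 13 (44.8%) held the core in at least 1 window, against 3.99% of 27025 genes and 3.44% of 32851 windows. Of 11 measured members with the core 5 were higher, none lower and 6 did not pass (median log2 fold change 0.30), and of 15 without the core 8 were higher, 2 lower and 5 did not pass (0.32). With a looser spelling that ends in GAA and includes every match of the core, the shares were 55.2% of members and 9.76% of genes. A match is a run of letters in this window and not a measured binding site.

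The OAS family was higher in marrow in all 4 measured members. Oas2 and Oas3 are synthetases that make an RNA-like messenger when they bind double-stranded RNA, and that messenger activates RNase L. Oasl1 and Oasl2 are related proteins named for their likeness to the synthetases. Oas3 stood at 362, 386, 387 and 673 in marrow arrays 1 to 4, against 193, 177, 219 and 190 in spleen arrays 1 to 4. All marrow arrays were above all spleen arrays, and marrow array 4 was far above the other 3, which lay close together. The log2 fold change of Oas3 was 1.17 ± 0.17 SE (limma adjusted p = 0.00021), and 0.96 without marrow array 4 (limma adjusted p = 1.4e-05). Oasl1 stood at 364, 432, 431 and 585 in marrow, against 247, 257, 261 and 187 in spleen. Here spleen array 4 was the low one, and the groups did not overlap (0.92 ± 0.14 SE, limma adjusted p = 0.00044). Oasl2 was 1.76-fold higher (geometric means 1534 in marrow and 873 in spleen) and Oas2 1.44-fold (1004 and 698), each without overlap.

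Of 3 IFIT genes 2 were higher in marrow and Ifit1 did not pass. Ifit1, Ifit2 and Ifit3 encode tetratricopeptide proteins that bind viral RNA or one another. Ifit2 stood at 723, 672, 709 and 1234 in marrow, against 426, 440, 608 and 470 in spleen. The groups did not overlap, but the gap between the nearest arrays was small and marrow array 4 carried much of the mean. Its log2 fold change was 0.75 ± 0.18 SE (limma adjusted p = 0.009), and 0.54 without marrow array 4 (limma adjusted p = 0.0072). Ifit3 stood at 1776, 2117, 1842 and 2850 in marrow, against 1262, 1269, 1458 and 1291 in spleen (0.68 ± 0.13 SE, limma adjusted p = 0.0024). Again no arrays overlapped, and again marrow array 4 was the highest. Ifit1 stood at 355, 398, 408 and 618 in marrow, against 508, 359, 511 and 547 in spleen. Its groups overlapped, with 3 marrow arrays below 3 of the spleen arrays and marrow array 4 above them all (-0.13 ± 0.17 SE, limma adjusted p = 0.76, 95% interval -0.49 to 0.24).

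**Figure D4:**
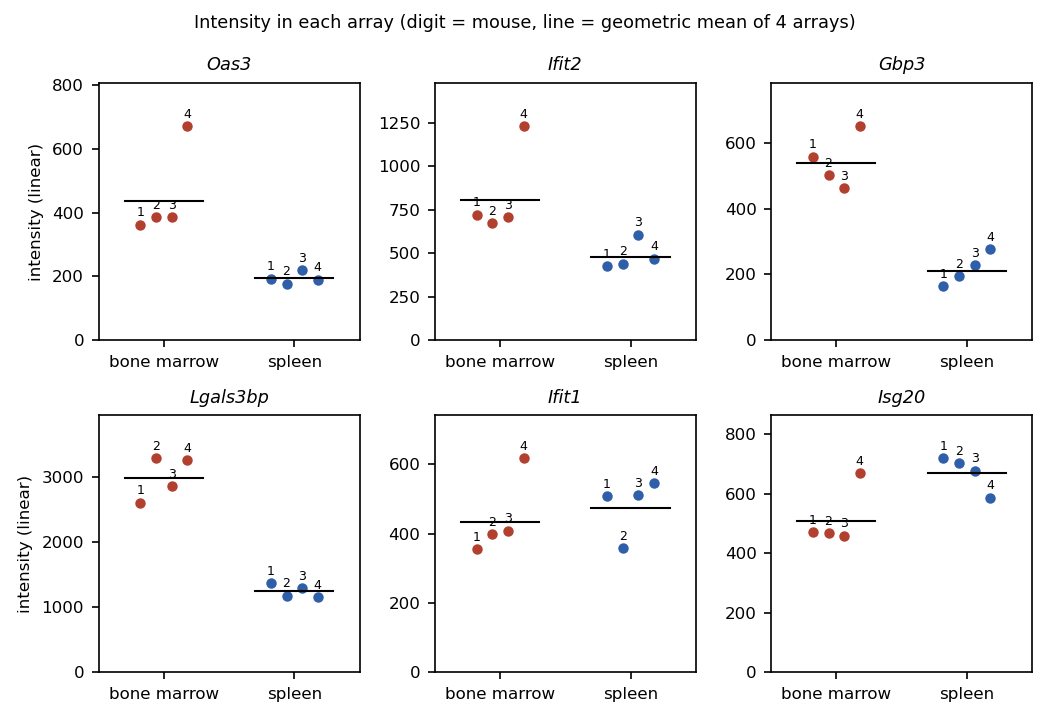
Each panel gives the linear intensity of 1 gene in each array, with bone marrow left of spleen, digits for the mouse and a line at the geometric mean of 4 arrays; the axes start at 0. Oas3 and Ifit2 show marrow array 4 above the others, Gbp3 and Lgals3bp show 4 marrow arrays well above spleen, and in Isg20 marrow array 4 is the one that overlaps spleen.

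Of the interferon-induced GTPases, all 3 with a value were higher. Gbp3 is a guanylate-binding protein, of a family that coats and breaks open vacuoles holding microbes, and Mx1 and Mx2 block the replication of RNA viruses. Gbp3 had the largest fold of all members, at 558, 501, 462 and 652 in marrow against 163, 195, 228 and 276 in spleen (log2 fold change 1.35 ± 0.15 SE, limma adjusted p = 2.7e-05). The lowest marrow array was well above the highest spleen array. Mx2 stood at 198, 197, 192 and 231 in marrow, against 96.7, 124, 169 and 139 in spleen (0.66 ± 0.14 SE, limma adjusted p = 0.0048), and its 3 lower marrow arrays were nearly equal. The spleen values of 96.7 and 124 lay below the array medians, where background makes the size of a fold uncertain. Mx1 was 1.52-fold higher, with geometric means of 400.0 in marrow and 263 in spleen.

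Of 6 nucleic acid sensors 2 were higher in marrow and 4 did not pass. Ifih1 (MDA5) and Ddx58 (RIG-I) detect viral RNA in the cytosol and Dhx58 (LGP2) modulates them, Zbp1 senses Z-form nucleic acid, Eif2ak2 (PKR) halts translation on binding double-stranded RNA, and Adar edits it. Zbp1 stood at 807, 794, 915 and 1156 in marrow, against 565, 580, 663 and 542 in spleen (log2 fold change 0.63 ± 0.12 SE, limma adjusted p = 0.0019), with no overlap. Eif2ak2 stood at 279, 358, 341 and 323 in marrow, against 218, 216, 285 and 256 in spleen (0.42 ± 0.11 SE, limma adjusted p = 0.016). Marrow array 1 fell below spleen array 3, and the call ended without marrow array 2 or spleen array 1 or 2 (limma adjusted p of 0.051, 0.053 and 0.056). Ifih1 (log2 fold change 0.06, 95% interval -0.16 to 0.27), Ddx58 (0.01, -0.26 to 0.29) and Adar (0.12, -0.10 to 0.34) did not pass. Ddx58 had geometric means of 1023 in marrow and 1014 in spleen. Dhx58 had a log2 fold change of 0.36 (interval 0.07 to 0.65, limma adjusted p = 0.085), and passed without spleen array 3 (limma adjusted p = 0.019).

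Of 4 measured genes of the Isg15 and ubiquitin pathway, Trim25 was higher, Herc6 was lower and 2 did not pass. Trim25 is a ubiquitin ligase that activates RIG-I, Herc6 attaches Isg15 to proteins in mouse cells, Usp18 removes it and also damps the type I receptor, and Trim30a restrains inflammatory signalling. Trim25 stood at 901, 704, 836 and 770 in marrow, against 565, 446, 645 and 457 in spleen (log2 fold change 0.61 ± 0.12 SE, limma adjusted p = 0.003). It is a member in which marrow array 4 was not the highest, and the groups did not overlap. Herc6 stood at 467, 489, 511 and 551 in marrow, against 544, 592, 673 and 685 in spleen (-0.30 ± 0.09 SE, limma adjusted p = 0.04). Marrow array 4 overlapped spleen array 1, and the Herc6 call ended in 9 of 15 alternatives, among them without marrow array 1, 2 or 3 or spleen array 2, 3 or 4 (limma adjusted p from 0.059 to 0.12). Usp18 had geometric means of 1031 in marrow and 1189 in spleen (log2 fold change -0.21, 95% interval -0.41 to -0.0022, limma adjusted p = 0.18). Trim30a stood at 2352, 2628, 2696 and 2816 in marrow, against 2101, 2136, 2155 and 2469 in spleen (0.24 ± 0.09 SE, limma adjusted p = 0.073). Spleen array 4 stood above the other 3 spleen arrays and overlapped marrow, and without it Trim30a passed (limma adjusted p = 0.032).

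Parp12 and Parp14, which transfer ADP-ribose, were higher in marrow, and Parp9 and its ubiquitin ligase partner Dtx3l did not pass. Parp12 stood at 1492, 1427, 1634 and 1736 in marrow, against 918, 848, 959 and 1042 in spleen (log2 fold change 0.74 ± 0.09 SE, limma adjusted p = 6.5e-05). Parp14 stood at 1176, 1136, 1433 and 1199 in marrow, against 769, 803, 1017 and 803 in spleen (0.55 ± 0.11 SE, limma adjusted p = 0.0024). In both genes the groups were separate, and in Parp14 array 3 was the highest in each tissue. Parp9 (geometric means 492 in marrow and 471 in spleen, log2 fold change 0.06, 95% interval -0.19 to 0.32) and Dtx3l (755 and 766, -0.02, -0.23 to 0.18) did not pass.

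Among enzymes that act on nucleotides and nucleic acids, Cmpk2 and Rsad2 were higher, Isg20 was lower and Samhd1 did not pass. Cmpk2 is a mitochondrial nucleotide kinase, and Rsad2 (viperin) makes a chain-terminating nucleotide. Cmpk2 stood at 386, 365, 379 and 570 in marrow, against 284, 182, 198 and 194 in spleen (log2 fold change 0.99 ± 0.16 SE, limma adjusted p = 0.00061). Rsad2 stood at 395, 459, 413 and 618 in marrow, against 358, 222, 286 and 229 in spleen (0.79 ± 0.16 SE, limma adjusted p = 0.004). Both had marrow array 4 and spleen array 1 as the highest of their groups, and neither overlapped. Isg20, an exonuclease of single-stranded RNA, stood at 471, 467, 459 and 668 in marrow, against 720, 703, 678 and 587 in spleen (-0.39 ± 0.12 SE, limma adjusted p = 0.039). In Isg20, 3 marrow arrays lay below all spleen arrays and marrow array 4 above spleen array 4. The call ended with the mouse as a replicate block (limma adjusted p = 0.071) and without marrow array 1, 2 or 3 or spleen array 1, 2 or 3 (limma adjusted p from 0.083 to 0.12), while without marrow array 4 the log2 fold change was -0.52 (limma adjusted p = 0.0015). Samhd1, which degrades deoxynucleotides, had geometric means of 4591 in marrow and 4322 in spleen (log2 fold change 0.09, 95% interval -0.07 to 0.25).

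Of the nuclear members, Sp100, a component of nuclear bodies that bear PML protein, stood at 3014, 3175, 2996 and 3207 in marrow, against 2468, 2230, 2583 and 2648 in spleen (log2 fold change 0.32 ± 0.08 SE, limma adjusted p = 0.011). The groups were close but separate. Stat2, the transcription factor of the pathway itself, stood at 2307, 1992, 2580 and 2692 in marrow, against 2390, 2373, 2669 and 2044 in spleen (0.01 ± 0.11 SE, limma adjusted p = 0.98, 95% interval -0.23 to 0.25), with full overlap. Ifi35 did not pass (-0.14, interval -0.39 to 0.11).

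Of 5 measured membrane, secreted and other products 3 were higher, and Lgals3bp and Ifi27l2a were among the 4 members that differed by 2-fold or more. Lgals3bp, a secreted glycoprotein that binds galectins, stood at 2605, 3289, 2857 and 3260 in marrow, against 1375, 1176, 1294 and 1158 in spleen (log2 fold change 1.26 ± 0.10 SE, limma adjusted p = 9.3e-07). Ifi27l2a, a small hydrophobic protein, stood at 4242, 4097, 4398 and 5287 in marrow, against 1998, 1922, 2320 and 2724 in spleen (1.01 ± 0.12 SE, limma adjusted p = 4.1e-05). In both genes every marrow array was clearly above every spleen array, and in Lgals3bp marrow array 4 did not stand out. Rtp4, a chaperone of membrane receptors, was 1.37-fold higher (limma adjusted p = 0.0034). Ifitm3, which blocks fusion of viruses with endosomes, stood at 10091, 10212, 8525 and 10390 in marrow, against 8469, 7038, 7490 and 8913 in spleen (0.30 ± 0.10 SE, limma adjusted p = 0.052). Marrow array 3 was the low one and overlapped spleen, and Ifitm3 passed without it (limma adjusted p = 0.025), without spleen array 4 (0.028) and in 4 further alternatives. Xaf1, a binding partner of an apoptosis inhibitor, did not pass (0.22, 95% interval -0.01 to 0.46), but did without spleen array 4 (limma adjusted p = 0.027).

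Members that lie near each other on a chromosome were compared in pairs. In the RefSeq gene order, 7 pairs of consecutive members, both measured, had at most 5 protein-coding genes between them. Any pair with Gbp2, Isg15 or Ifi44, which have no value, was left out. For each pair the log2 ratio of the 2 genes within an array was compared between tissues by a two-sided exact permutation test over 4 against 4 arrays, which cannot go below 0.0286. This comparison was chosen after the values were seen. Ifit3 and Ifit1 on chromosome 19 differed in log2 fold change by 0.81, Oas3 and Oas2 on chromosome 5 by 0.64, and Parp14 and Dtx3l on chromosome 16 by 0.57. For each of these 3 pairs the exact permutation p was 0.0286, with no overlap between the arrays of the 2 tissues, and 0.0667 adjusted over the 7 pairs, so none passed. The Oas3 and Oas2 difference was 0.42 without marrow array 4. The other pairs differed by 0.20 (Cmpk2 and Rsad2), 0.11 (Oasl1 and Oasl2), 0.09 (Parp9 and Dtx3l) and 0.07 (Ifit2 and Ifit3), with exact p from 0.0857 to 0.714.

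Upstream of the members, 4 of 10 measured receptor and signalling genes were higher and 1 was lower, against 9.26% and 9.2% of all genes. Ifnar1 stood at 1674, 1812, 1792 and 1813 in marrow, against 1179, 1208, 1299.8 and 1023 in spleen (log2 fold change 0.59 ± 0.09 SE, limma adjusted p = 0.00025). Ifnar2, its partner chain, was 1.29-fold higher, and Il10rb, a chain shared by the receptors of type III interferon and of interleukin 10, 1.41-fold. In these 3 receptor chains the arrays of the 2 tissues did not overlap. Nor did they overlap in the fourth higher gene, Ifngr2, a chain of the interferon gamma receptor. Ifngr2 did not pass with the mouse as a replicate block (limma adjusted p = 0.077). Jak2, a kinase of the interferon gamma receptor and of many cytokine receptors, was 2.92-fold lower, at 760 in marrow and 2220 in spleen (-1.55 ± 0.10 SE, limma adjusted p = 2.0e-07). Tyk2 (log2 fold change 0.33, limma adjusted p = 0.059), Irf9 (-0.04) and Jak1 (-0.02) did not pass. Between the tissues, no Tyk2 arrays overlapped.

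Of 11 measured genes that lead to interferon production 5 were higher and 1 lower, against 9.26% and 9.2% of all genes. Ikbke, a kinase that activates interferon regulatory factors, was 2.08-fold higher (log2 fold change 1.06 ± 0.09 SE, limma adjusted p = 2.8e-06), and Mavs, the adapter of RIG-I and MDA5, 1.77-fold. Irf7, the transcription factor that amplifies interferon production and is itself interferon-stimulated, stood at 2058, 2323, 2529 and 3489 in marrow, against 1585, 1628, 1607 and 1492 in spleen (0.69 ± 0.13 SE, limma adjusted p = 0.0023). As in many of the members, marrow array 4 was the highest. Tlr3, the endosomal sensor of double-stranded RNA, was lower, at 356 in marrow and 930.3 in spleen (-1.39 ± 0.18 SE, limma adjusted p = 7.9e-05). Limma called 0 of 14 measured interferon ligands. At an unadjusted limma p of 0.05 it also called 0, against 2548 higher and 2763 lower of 19938 genes. Their log2 fold changes lay between -0.15 (Ifne) and 0.15 (Ifna12). Ifnb1 stood at 53.5 in marrow and 56.3 in spleen, below the array medians, where background makes the size of a fold uncertain. Ifne (58.1 in marrow and 64.5 in spleen) and Ifna12 (23.6 and 21.3) were below them too. So were Ifna4, Ifna9, Ifna11, Ifnab, Ifnk and Ifng in both tissues. For genes this dim, the lack of a call does not show equal levels.

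Of 10 genes that suppress interferon signalling 3 were higher and none lower, against 9.26% and 9.2% of all genes. At an unadjusted limma p of 0.05, 1 was lower, against 2763 of all 19938 genes. The phosphatase Ptpn1 was 1.60-fold higher (limma adjusted p = 3.9e-05). Irf2, a repressor of interferon genes, was also higher (log2 fold change 0.36, limma adjusted p = 0.034). So was the phosphatase Ptpn11, at 1.27-fold (limma adjusted p = 0.032, or 0.059 with the mouse as a replicate block). The count of 3 was 1 without marrow array 2, without marrow array 4 or without spleen array 3.

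**Figure D5:**
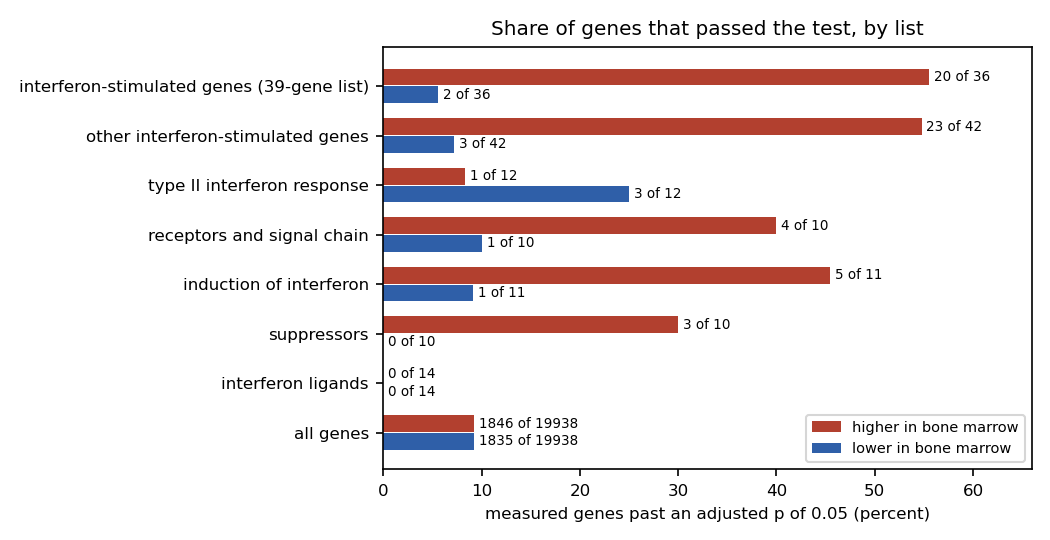
Bars give the percent of measured genes past a limma adjusted p of 0.05 in each list, higher (red) and lower (blue) in bone marrow, with counts beside them. The 36 measured genes of the 39-gene list (20 higher) and the other interferon-stimulated genes (23 of 42 higher) lie above all genes (9.26% higher). The type II response list has 3 of 12 lower, against 9.2% of all genes.

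Of a further 50 interferon-stimulated genes outside the list 42 were measured. Of these, 23 (54.8%) were higher and 3 lower in bone marrow, against 9.26% and 9.2% of all genes. Their median log2 fold change was 0.37. Slfn1, a Schlafen family gene, was 4.25-fold higher (log2 fold change 2.09 ± 0.13 SE, limma adjusted p = 1.1e-07). Mlkl, the executor of necroptosis, was 2.98-fold higher. The immunity-related GTPase Iigp1 was higher too (log2 fold change 0.92 ± 0.14 SE, limma adjusted p = 0.00033), with levels of 83.0 in marrow and 43.8 in spleen, both below the array medians, where background makes the size of a fold uncertain. The 3 lower genes were Ifi205, Ifitm1 and Trim34a. Ifi205, of the family of DNA-binding proteins with pyrin domains, stood at 381, 649, 298 and 857 in marrow, against 1064, 1193, 930.2 and 1731 in spleen (-1.25 ± 0.28 SE, limma adjusted p = 0.0069). Ifitm1 was 1.78-fold and Trim34a 1.44-fold lower. Of 12 measured genes of the type II response, which interferon gamma drives, 1 was higher (8.33%) and 3 were lower (25%). Over all genes 9.26% were higher and 9.2% lower. The median log2 fold change of the 12 was -0.08, and 5 were lower with quantile normalization. The chemokine Cxcl10 was 1.87-fold higher (limma adjusted p = 0.0049). Cd274 (PD-L1) was 1.99-fold lower and the adhesion molecule Icam1 1.53-fold. The immunoproteasome subunit Psmb9 was also lower, at 2642 in marrow and 3969 in spleen, although marrow array 4 overlapped spleen.

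Markers of dendritic cells and of other cells moved with the same comparison. Over all genes 9.26% were higher and 9.2% lower in marrow. Of 8 classical dendritic cell markers 6 were lower in marrow (summed intensity 26653 to 28847 in marrow arrays and 35188 to 40160 in spleen arrays). Kit was 12.6-fold, Spint1 12.0-fold, Zbtb46 2.43-fold, Flt3 2.07-fold, Dpp4 1.49-fold and Itgax (CD11c) 1.32-fold lower. H2-Ab1, a class II chain, at 15354 in marrow and 14678 in spleen, and Batf3, at 1676 in marrow and 1760.1 in spleen, did not pass. Neutrophil markers were higher in 12 of 13 (summed intensity 22015 to 30099 in marrow arrays and 1921 to 2663 in spleen arrays), classical monocyte markers in 5 of 6 (13755 to 15140 and 3342 to 3892) and macrophage markers in 9 of 11 (25433 to 35421 and 5833 to 6702). Erythroid markers were higher in 4 of 5 (798 to 1250.2 in marrow and 357 to 509 in spleen). B cell markers were lower in 4 of 5 (1282 to 1388 in marrow and 2960 to 3433 in spleen), T and NK cell markers in 5 of 6 (1039 to 1382 and 2826 to 3112) and plasmacytoid dendritic cell markers in 3 of 6 (1514 to 1650.1 and 1677 to 2006). No marker was at 0.

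The marker lists were also read in the arrays that stood apart, as median deviations from the group's median on the log2 scale. In marrow array 4 the classical dendritic cell markers deviated by 0.07 (5 of 8 highest there), the plasmacytoid by 0.07 (3 of 6), the neutrophil by 0.08 (3 of 13), the T and NK cell by 0.02 (2 of 6), the B cell by -0.01 (1 of 5), the classical monocyte by -0.02 (3 of 6), the macrophage by -0.18 (0 of 11) and the erythroid by -0.26 (0 of 5). Among the dendritic cell markers, Kit was 1.63-fold, Spint1 1.47-fold and Flt3 1.31-fold above the other 3 marrow arrays. In spleen array 3 the B cell markers deviated by 0.22 (3 of 5 highest there), the classical dendritic cell by 0.07 (7 of 8), the T and NK cell by 0.02 (1 of 6), the neutrophil by -0.01 (5 of 13), the plasmacytoid by -0.01 (2 of 6), the macrophage by -0.03 (4 of 11), the classical monocyte by -0.09 (1 of 6) and the erythroid by -0.19 (0 of 5). In spleen array 4 the classical dendritic cell markers deviated by -0.28, with 0 of 8 highest there. The part of these markers in the results for the interferon-stimulated genes was not tested.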

How the data were processed

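The authors deposited linear intensities for 35556 probe sets in each of 8 arrays. The submitters' processing notes name Affymetrix Expression Console 1.4. The sources used here do not state how background was corrected or how values were normalized and summarized. A platform annotation of 2016 named probe sets: 21789 name 1 gene, 1621 several, and 12146 are not listed. The brightest probe set stood for a gene (no member had a choice).

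The log2 intensities were fitted with limma 3.58.1 in R 4.3.3 (lmFit and eBayes), tested on simulated data first, with no block. The replicate number is the mouse, per the description labels. Within mice 1 to 4 the deviations of both tissues from their group means correlated across genes at 0.096, -0.088, -0.178 and -0.054. The p-values measure the spread among 4 arrays per tissue, whose number limits the precision. Exact tests used SciPy 1.17.1. Alternatives were quantile normalization, median centring, leaving out dim genes, the mean of probe sets, an eBayes trend, array weights, the mouse as a block and leaving out each array.

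The members and all gene lists were chosen with earlier results of these data known. Every member is named. Per-array values go to the 2 called members of each role with the largest fold in each direction and to those with an array that stands apart; other genes are up to 3 per list and direction with the largest fold. Per-array values of Ifit1 and Stat2, and Ifngr2, Tyk2, Irf9 and Jak1, were chosen after their values were seen. So were the interferon ligands other than Ifne and the dendritic cell markers.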

Additional observations from a re-analysis of the deposited data

Results flagged for a closer look

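In a group of 4 arrays, an array was singled out when its gap to the nearest other was too large a part of the group's range (above Dixon's 95% critical value, on log2 intensity). Of 72 groups tested (36 members in 2 tissues) 10 were singled out. The nominal rate for normally distributed values is about 1 in 20, and the share over all genes was not computed. The count is therefore not a result about these genes in particular. That a marrow array stood apart for Oas3 was known before the test. Bone marrow array 4 was the high one in 5 of them, with intensities of 673 for Oas3, 1234 for Ifit2, 231 for Mx2, 668 for Isg20 and 570 for Cmpk2. Bone marrow array 3 was low for Ifitm3, at 8525. In spleen, array 3 was high for Ifit3 (1458) and Parp14 (1017), array 4 was high for Trim30a (2469), and array 4 was low for Oasl1 (187). The 72 groups share 8 arrays and are not independent.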

How the results depend on the processing

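The limits are 4 arrays per tissue, an unknown background under dim genes and an unstated normalization. Of the 20 members higher in bone marrow, 19 kept their call in all 15 alternatives, and Eif2ak2 did not. The count of higher members lay between 19 and 23, and the median log2 fold change of the members between 0.40 and 0.50. The 2 lower members, Herc6 and Isg20, were less stable: the count of lower members was 0 with median centring, 1 with an intensity trend in eBayes, 1 with array weights and 1 under the replicate block by mouse, and between 0 and 2 with single arrays left out. With bone marrow array 4 and spleen array 3 both left out, an alternative chosen after the data were seen, 21 members were higher and 1 was lower, and 34 of 36 calls were the same. The replicate block left 20 members higher and changed the call of 1 member, Isg20, of Ifngr2 and Ptpn11, and of 3 markers (Mmp9, Vcan and Vcam1), which then passed. The looser motif was found in 55.2% of members and 9.76% of genes. No direction of a called gene in these lists reversed in any alternative. For the neighbouring pairs, the difference turned sign for Parp9 and Dtx3l without spleen array 1 (-0.06) and for Oasl1 and Oasl2 without spleen array 4 (-0.02).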
